A study of Mus musculus with 4 samples.

Results

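Egr2, a zinc-finger protein also known as Krox-20, binds GC-rich DNA and is switched on in developing T cells by signals from the antigen receptor (TCR). It acts on target genes both as an activator and, with its NAB corepressors, as a repressor. In the thymus it takes part in positive selection and is needed for the natural killer T (NKT) lineage, whose invariant receptor recognises lipids on CD1d. Described here are the tall Egr2 regions that were listed in thymocytes after a strong TCR signal and that no listed NKT region overlapped. They were chosen by 3 measured values: a ChIP tag density of 13 or more, a control tag density under 3, and no overlap of even 1 bp with a region of the NKT list. The tag density is the authors' height value for a region, with no stated scale, and control tags are what the lists call background tags. The rule gave 665 of the 4216 regions of the injected-thymocyte list, out of 6212 regions in both lists.

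Chromatin was immunoprecipitated with the same anti-Egr2 antibody from 20000000 cells per preparation. The thymocytes came from 3 to 5 mice that had received 500 µg of anti-TCRβ antibody 24 hours earlier, and the labels name no sort for them. The NKT cells were enriched with CD1d tetramers from about 10 Va14tg mice, which carry the rearranged Vα14 receptor chain of NKT cells, and no injection is given for them. The labels give Va14tg as the strain of both libraries. Each condition is 1 library of pooled mice, so antibody injection, cell population and library cannot be told apart, and no p-value is given. The 95% intervals below are exact and cover counting error only. PCR duplicates are not independent molecules, and neighbouring regions share a library.

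The label "only in stimulated thymocytes" holds for the lists and no further. Peak lists hold no expression, so the cell types could not be checked by markers. The files list NKT tags for NKT regions alone, so the NKT signal at the 665 positions was not measured here. Regions are numbered by falling density, and of the numbers up to 1218, the last of the 665, 189 (15.5%) were absent from the list as analysed. In the NKT list 889 of 2885 numbers were absent, and regions under them were not analysed here.

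Above a density of 16, taller regions were less often free of an NKT overlap. Among the 967 tall regions with a control density under 3, 665 overlapped no NKT region (68.8%, 95% interval 65.7% to 71.7%), against 91.6% of all 4216 regions. The rule used these values, so the share is a description. Between densities of 13 and 14, 176 of 204 regions were unshared (86.3%, 80.8% to 90.7%), and between 14 and 16 it was 176 of 194 (90.7%, 85.7% to 94.4%). These lowest height classes have overlapping intervals. The unshared part was 150 of 214 between 16 and 20 (70.1%), 116 of 209 between 20 and 30 (55.5%), and 47 of 146 at 30 or more (32.2%, 24.7% to 40.4%). Most of the unshared regions lay in the lower height classes: the median density was 15.5 (quartiles 13.98 and 19.98) and the highest 59.7.

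**Figure D1:**
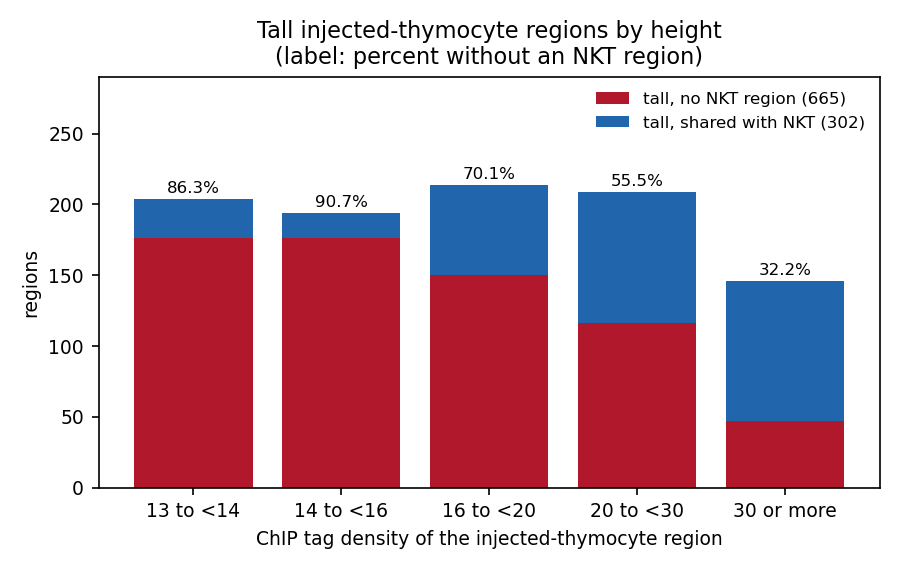
Tall injected-thymocyte regions (ChIP density 13 or more, control density under 3) in 5 classes of ChIP tag density, as stacked counts of regions without an NKT region and regions shared with the NKT list. The percentage above each bar is the unshared part, which was 90.7% between densities of 14 and 16 and 32.2% at 30 or more.

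The limit of 13 cut through a continuous range. The last 5 regions inside it had a density of 13.07, with 14 to 28 ChIP tags and at most 2 control tags. The first 5 unshared regions outside it had 12.99, with 16 to 24 ChIP tags and at most 7 control tags. The difference is 0.0822, the smallest step between deposited densities. At the control limit, the last region inside had a control density of 2.98, and the first tall unshared region outside had 3.03.

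The tallest unshared site was chr15:8118818-8119223 (mm9), with a density of 59.7. It held 113 ChIP tags (exact Poisson interval 93.1 to 136) and no control tag. Its nearest NKT summit was 1544 kb away, whereas another tall unshared region lay at 104 kb. The second, chr4:135637590-135638108, had a density of 52.0 and the most ChIP tags of all 665 regions, 138 against 1 control tag. A weaker unshared region, with a density of 19.3, lay 14.02 kb from it, while the nearest NKT summit was 598 kb away. The third, chr17:23814313-23814595, was compact: 75 ChIP tags and no control tag within 283 bp, at a density of 50.3.

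Chromosome 4 held 2 further regions among the 5 tallest. At chr4:116924364-116924792 the density was 48.7, with 113 ChIP tags and no control tag. At chr4:133523090-133523393 it was 48.6, with 77 ChIP tags and 3 control tags. The latter came close to failing the rule, since its control density was 2.90. The following sites were chr7:54263468-54263874 at a density of 45.5, chr12:70683843-70684197 at 45.2 and chr7:28146442-28146806 at 44.1. They were followed by chr13:114408621-114408952 at 42.6 and chr9:44225997-44226410 at 42.0. In these 5 regions 70 to 101 ChIP tags were counted and at most 1 control tag.

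The 25 tallest unshared regions lay on 15 chromosomes, with 4 on chromosome 4 and 3 each on chromosomes 7 and 11. They held 56 to 138 ChIP tags, and 16 of the 25 had no control tag. The most control tags in any of them was 3. Their widths ran from 283 to 583 bp, and the deposited tag enrichment from 11.8 to 22.9. How this enrichment was calculated was not established here. Where control tags were few, it followed the ChIP tags and the width and not the control count. Regions with 2 control tags had 5.19 at 19 ChIP tags and 4.64 at 17, and one with 1 control tag had 6.01 at 22. Where control tags were many, it followed the ratio of ChIP to control tags. The median distance to the nearest NKT summit was 401 kb: 12 of the 25 had none within 500 kb, and 5 had none within 1 Mb. In 4 cases an NKT summit lay within 50 kb. These were chr7:52883926-52884456 (density 38.3) at 14.9 kb, chr11:113509560-113509934 (35.4) at 29.8 kb, chr8:73153489-73153897 (40.9) at 30.3 kb and chr4:100964672-100965053 (40.7) at 41.7 kb.

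Over all 665 regions the tag counts were modest. The median region held 27 ChIP tags (quartiles 21 and 37, range 8 to 138) and 1 control tag. A count of 27 has an exact Poisson interval of 17.8 to 39.3, so the order of regions in the middle of the range is not resolved by their tags. No control tag was counted in 225 regions (33.8%, 30.2% to 37.6%), against 16.6% of all listed regions, a share the limit on control density favours. The deposited tag enrichment had a median of 7.10 and quartiles of 5.46 and 9.01. At low control counts it mostly restates the ChIP tags and width. The 302 tall regions shared with NKT cells were taller, at a median density of 24.995, and had medians of 48 ChIP tags and an enrichment of 11.01. The 3005 weak unshared regions, with a density under 13 and the same control limit, had medians of 15 tags and 3.82. No control tag was counted in 30.5% (25.3% to 36.0%) of the shared tall regions, near the share in the unshared tall ones. In the weak unshared regions it was 12.4% (11.3% to 13.6%), although they passed the same control limit.

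Within a height class the shared regions still held more tags and were wider by median, by amounts that differed between classes. Between densities of 13 and 14 the unshared regions had a median of 20 ChIP tags in 194.5 bp, and the shared ones 23.5 tags in 252 bp. Between 20 and 30 the medians were 41 tags in 316.5 bp and 48 tags in 326 bp. At 30 or more they were 70 tags in 375 bp and 82 tags in 405 bp. The same order held between 14 and 16 and between 16 and 20. Tags and width follow the density that the rule used, so no test was made of these differences.

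**Figure D2:**
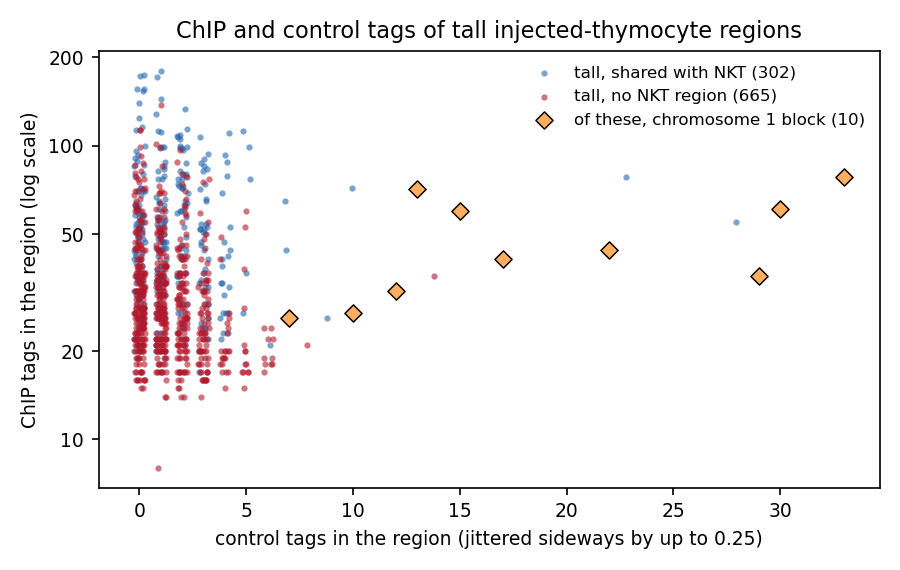
ChIP tags (log scale) against control tags in each tall injected-thymocyte region, shared with NKT cells or not. The 10 unshared regions of the block on chromosome 1, drawn as diamonds, had 7 to 33 control tags, and outside the block 1 unshared region had 10 or more.

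The tags and the height did not always match. At chr8:94099114-94099249 only 8 ChIP tags were counted against 1 control tag at a density of 13.98, the fewest tags of all the regions. At chr4:106500405-106500925 60 ChIP tags and no control tag accompanied a density of 14.3, spread over 521 bp. The widest unshared region outside the chromosome 1 block was chr15:36538721-36539443, which spanned 723 bp and held 77 ChIP tags without any control tag. It was followed by chr8:14989256-14989914 with 659 bp and 48 tags, and chr10:127104850-127105475 with 626 bp and 71 tags. The widest of all were inside that block, with 974 and 749 bp.

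The strand shift, a value in bp that the lists give for each peak, was not part of the rule. How it relates to the full offset between forward-strand and reverse-strand tags was not established here. The median of this shift is given first. The median shift was 87 bp in the unshared tall regions (quartiles 77 and 98). It was 87.5 bp (78 and 98) in the shared tall regions and 86 bp (78 and 95) in the weak unshared ones. A shift of 60 bp or more was present in 638 of 665 regions (95.9%, 94.1% to 97.3%), in 96.4% of shared tall regions and in 96.2% of all listed injected-thymocyte regions. The values of regions with and without an NKT counterpart thus overlapped almost fully within the list. The extremes were 32 bp at chr1:67085168-67085552 and 185 bp at chr13:58258806-58259186, and neither is among the tallest. In the NKT list the median was 45 bp, and only 23.8% of its regions had a shift of 60 bp or more.

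Few of the unshared sites lay close to an NKT region. An NKT summit lay within 1 kb of 4 regions, within 10 kb of 26 (3.91%, 2.57% to 5.68%), within 50 kb of 91 (13.7%) and within 100 kb of 152 (22.9%). The corresponding background at 10 kb was 3.68% of all 3861 unshared regions of the list, so the share of the tall regions was near it. The median distance to the nearest NKT summit was 332 kb (quartiles 114 and 738 kb), and 108 regions (16.2%) had none within 1 Mb. Both values depend on which NKT regions are counted. With only the 23.8% of NKT regions that had a strand shift of 60 bp or more, the rule gave 741 regions. For those 741 regions the median distance was 1262 kb and the share within 10 kb 2.02%. The set of regions and the NKT list thus both differed from those above. Among the weak unshared regions 2.46% (1.94% to 3.08%) had an NKT summit within 10 kb, 9.62% (8.59% to 10.7%) within 50 kb and 17.2% (15.9% to 18.6%) within 100 kb, and the median was 420 kb. At 50 and 100 kb the intervals of the tall regions, 11.2% to 16.5% and 19.7% to 26.2%, lay above those of the weak ones. Without the chromosome 1 block the share at 10 kb was 21 of 655 (3.21%), at 50 kb 12.4% (9.94% to 15.1%) and at 100 kb 21.7% (18.6% to 25.04%). The weak regions without the block had 9.25% (8.24% to 10.4%) at 50 kb, which overlaps, and 16.9% (15.5% to 18.3%) at 100 kb, which does not.

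Distance did not follow height evenly. The median distance to the nearest NKT summit was 449 kb for regions with a density between 13 and 14, 363 kb between 14 and 16 and 298 kb between 16 and 20. It was 245 kb between 20 and 30 and 302 kb at 30 or more, where 1 of 47 regions had an NKT summit within 10 kb.

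**Figure D3:**
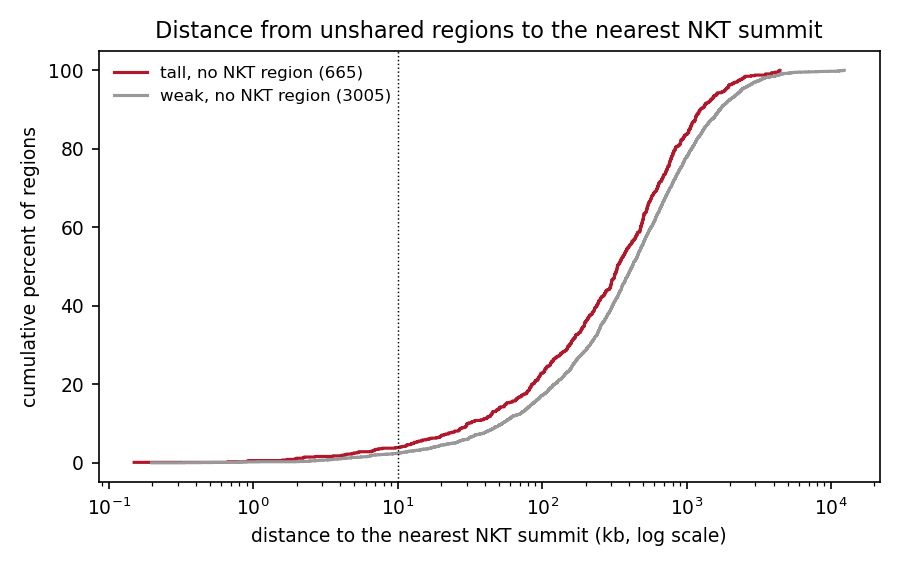
Cumulative percentage of unshared regions of the injected-thymocyte list against the distance to the nearest NKT summit (kb, log scale), for the tall and the weak regions, with a dotted line at 10 kb. The medians were 332 kb and 420 kb, and 3.91% and 2.46% of regions lay left of the dotted line.

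The closest approach was at chr14:43998215-43998375, where 4 bp separated the region from an NKT region and the summits were 150 bp apart. The NKT region there had 16 ChIP tags and 20 control tags, and the thymocyte region 24 and 6. The next was chr14:78836444-78836712, with a density of 16.4, whose NKT neighbour lay 669 bp away and had 21 ChIP tags against 2 control tags. At chr10:127104850-127105475 the distance was 904 bp, and at chr10:117356587-117356813 it was 930 bp. The fifth, chr11:98209435-98209755, was much taller, with a density of 32.1 and 57 ChIP tags, and its NKT neighbour at 1589 bp was weak, with 10 ChIP tags and 2 control tags.

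Besides the 5 regions in the block, 21 regions had an NKT summit within 10 kb. In 11 of these 21, the NKT region overlapped a different region of the injected-thymocyte list, so the unshared site stood beside a shared one. In the other 10 the NKT region overlapped none, so the lists placed separate sites in the same neighbourhood. One such case was chr2:172911348-172911663, with a density of 17.02 and 29 ChIP tags, which lay 2.00 kb from an NKT-only region with 65 ChIP tags and no control tag.

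At the other extreme, the region farthest from any NKT summit was chr6:100783344-100783696, 4436 kb away, at a density of 18.1, where 46 ChIP tags and 2 control tags were counted. It was followed by chrX:50622860-50623063 at 4341 kb and chr10:41195894-41196304 at 4319 kb. The next, chr13:6647874-6648419 at 4093 kb, was taller: its density was 33.5 and it held 88 ChIP tags. The fifth was chrX:34351453-34351579 at 3881 kb, with 15 ChIP tags.

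Most of the regions were isolated from each other. When regions within 50 kb of the next were joined, 607 stood alone, 48 formed 24 pairs, and the remaining 10 formed 1 group on chromosome 1. Another unshared tall region within 50 kb was thus found for 58 of 665 (8.72%, 6.69% to 11.1%), or 48 of 655 without the block (7.33%). Regions of any height were closer: 174 of 665 (26.2%, 22.9% to 29.7%) had some other injected-thymocyte summit within 50 kb, against 21.4% of all listed regions. The share was 29.1% (24.1% to 34.6%) in shared tall regions and 17.97% (16.6% to 19.4%) in weak unshared ones. Without the block the tall unshared share was 25.04% (21.8% to 28.5%) and the weak one 17.6% (16.3% to 19.05%).

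Shared tall sites were also nearer to the tall unshared regions than to the weak ones. A shared tall summit lay within 50 kb of 36 tall unshared regions (5.41%, 3.82% to 7.42%), against 3.13% of all unshared regions. In the weak unshared regions it was 2.20% (1.70% to 2.79%). Without the block the shares were 4.12% (27 of 655, 2.73% to 5.94%) and 1.90% (1.45% to 2.46%). No test was made, since height was part of the rule and regions of 1 library are not replicates.

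The tightest of the pairs was chr14:60869681-60869903 and chr14:60870114-60870514, with summits 506 bp apart, 27 and 44 ChIP tags, and at most 1 control tag. In 4 of the 24 pairs the summits lay under 3 kb apart, and in 19 they were 10 to 50 kb apart, with a median of 16.9 kb over all pairs. No member of a pair had more than 4 control tags. The pairs thus lacked the high control counts of the chromosome 1 group. In 2 pairs a partner stood above a density of 40, namely the site on chromosome 4 named above, and chr8:73153489-73153897, whose partner 19.4 kb away had a density of 13.2.

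One pair belonged to a dense cluster with almost no control signal on chromosome 10. Within 6.68 kb, 4 injected-thymocyte regions followed each other at chr10:127099197-127106124. The first held 54 ChIP tags at a density of 27.95, and the second, chr10:127103673-127104216, held 114 at 47.1. Both were shared with NKT cells. The others, chr10:127104850-127105475 and chr10:127105738-127106124, had no NKT counterpart, with densities of 18.9 and 25.6 and 71 and 60 ChIP tags. Control tags numbered 1, 2, 0 and 0 in the 4 regions. The shared summit was 931 bp from the third region, and the NKT region at that position held 53 ChIP tags against 1 control tag. This run is 1 of 8 runs, of 3 or more regions each within 10 kb of the next, that held any tall unshared site.

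A run in which no region was shared with NKT cells was on chromosome 7. There chr7:26471731-26471961, with a density of 29.5 and 44 ChIP tags, lay 2.70 kb from chr7:26474418-26474630, with 16.9 and 28 ChIP tags. A weak region with 19 ChIP tags lay 5.81 kb on the other side. Each of the tall sites had 1 control tag. On chromosome 16, chr16:32877699-32878016 stood at the end of a run with 2 weak regions, with a density of 17.8 and 41 ChIP tags against no control tag.

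Some other runs carried raised control counts. At chr4:146710883-146718044, 4 regions held 3 to 13 control tags, and the tall unshared one, chr4:146714094-146714237, had 24 ChIP tags against 3. At chrX:5201648-5210610, 3 regions held 5 to 8 control tags, and the tall unshared one, chrX:5210450-5210610, had 21 ChIP tags against 8 and a deposited tag enrichment of 1.95. The run at chr10:117355595-117361472 was mixed: its 3 regions held 5, 1 and 2 control tags, with 22 ChIP tags against 1 in the tall unshared region. Clean and raised control counts thus both occurred among the runs.

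The group of 10 on chromosome 1 was of another kind. It lay in a block of 55 injected-thymocyte regions, each within 10 kb of the next, over 98.7 kb at chr1:90108246-90206910. The next longest run in the list had 10 regions. In the block 3333 ChIP tags faced 1423 control tags, and no region had fewer than 6 control tags. Of the 55 regions, 34 reached a density of 13, and 22 of these 34 had a control density of 3 or more and so fell outside the rule. The NKT list had 12 regions in the same stretch, with 996 ChIP tags against 867 control tags and a deposited tag enrichment of 0.829 to 1.83. The control signal was thus high in both lists.

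The 10 tall unshared regions of the block held 26 to 78 ChIP tags and 7 to 33 control tags. Their deposited tag enrichment was 0.921 to 4.05 with a median of 1.88, against a median of 7.10 for the 655 regions elsewhere. These medians are not like measures, since the enrichment of regions with few control tags did not follow the control count. At chr1:90179805-90180268, 36 ChIP tags stood against 29 control tags. The block held 1.504% of the 665 regions but 17.3% of their control tags. Outside it the highest control count was 14, at chr2:181028724-181029158, which also lay in a run of 3 regions with 8 to 18 control tags. All 10 passed the rule through a control density under 3 at the summit, which is a different quantity from the control tags of the whole region. The part of the control signal in these 10 was not tested.

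**Figure D4:**
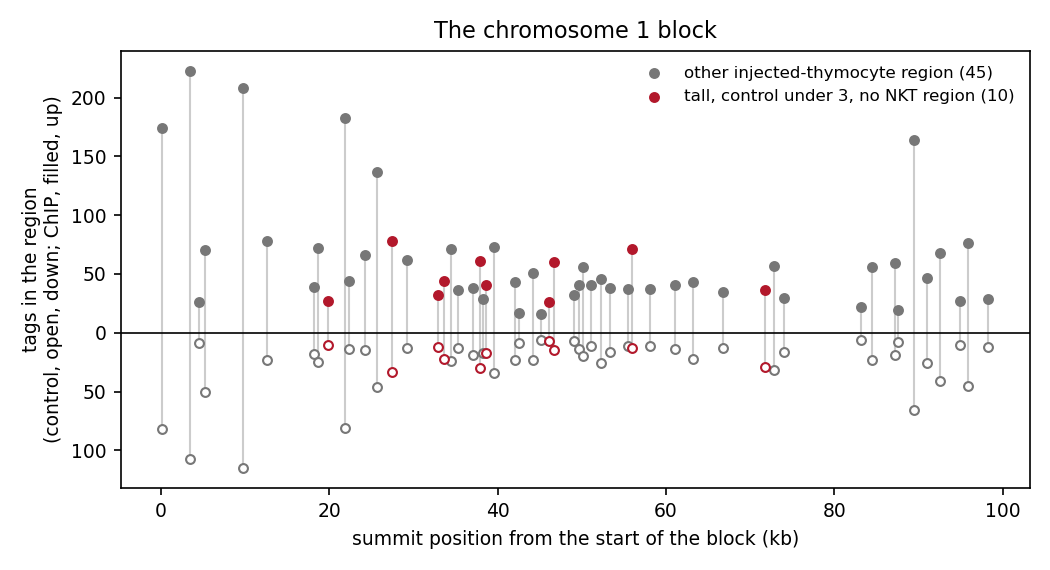
ChIP tags (filled, upward) and control tags (open, downward) of the 55 injected-thymocyte regions of the chromosome 1 block, by summit position in kb from its start. The 10 tall unshared regions lie among the others, and every region carries at least 6 control tags.

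The regions were spread over all 19 autosomes and the X chromosome. Chromosome 7 held the most, 55 (8.27%, 6.29% to 10.6%), against 6.05% of all listed regions (5.35% to 6.81%). This was not particular to the unshared sites, since chromosome 7 also held 8.28% of the shared tall regions, against 5.39% of the weak unshared ones. Of its 80 tall regions, 68.75% (57.4% to 78.7%) were unshared, near the 68.8% of the whole list. Per Mb between the first and last listed region, the tall unshared regions numbered 0.372 on chromosome 7, close to 0.373 on chromosome 9 and 0.362 on chromosome 11. The highest value, 0.430 (0.278 to 0.634), was on chromosome 19, which held 25 regions (3.76%, 2.45% to 5.50%, against 2.28% of all listed). These intervals overlap, so the order of these chromosomes is not resolved. Chromosome 1 held 43 regions, or 33 without the block.

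The X chromosome stood lowest, with 10 regions (1.504%, 0.723% to 2.75%), or 0.0618 per Mb (0.0296 to 0.114). It held 3.61% of all listed regions (3.06% to 4.21%) and 4.16% of the weak unshared ones, but 0.993% of the shared tall ones. Tall regions were thus scarce on X whether or not NKT cells had a region there: of 13 tall regions on X, 10 were unshared (76.9%, 46.2% to 94.96%), an interval that includes the 68.8% of the whole list.

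**Figure D5:**
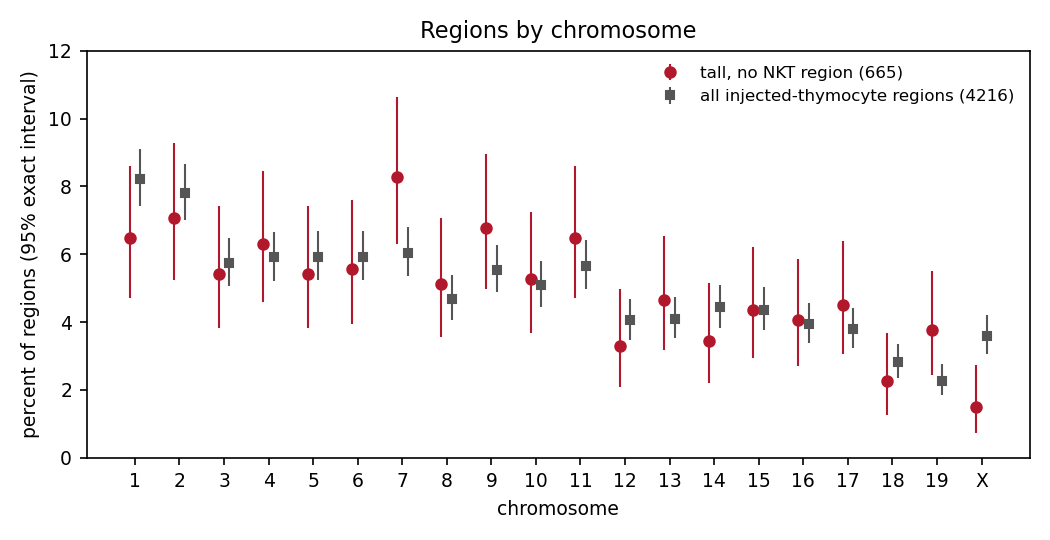
Percentage of the 665 tall unshared regions (circles) and of all 4216 injected-thymocyte regions (squares) on each chromosome, with 95% exact binomial intervals. The X chromosome held 1.504% of the former and 3.61% of the latter, and the intervals do not overlap there.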

How the data were processed

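Libraries from 100 ng of ChIP DNA went through 16 PCR cycles, and 150 to 400 bp fragments were sequenced, per the labels' protocols. Bowtie and mm9 are named in the submitters' processing notes. The peak caller, its settings and the choice of control library are not given in the sources used here. A separate list was deposited for each Egr2 library. The signal values deposited by the authors are ChIP and control tag densities at each region's summit, made from the aligned reads. The fold ratio deposited by the authors was calculated as ChIP over control density, with 1 in place of lower control densities, as its values show. The counts deposited by the authors are numbers of aligned ChIP and control (background) tags counted per region. Densities were compared within a list only. Total depths were not given, so each region's own tag count sets its precision.

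Regions were selected, overlapped and measured with Python 3.11.15, numpy 2.4.6, pandas 2.3.3 and scipy 1.17.1. The overlap and distance functions were checked on simulated regions. Distances are between summits, and the strand shift is that of the peak line. In 18 of the 665 regions the listed peak is not the first of its region, and the others were not analysed here. Shares carry Clopper-Pearson intervals, tag counts and regions per Mb Poisson intervals. Named regions were the 25 tallest (in part), those at the limits, the 5 widest, the 5 nearest to and farthest from an NKT region, and groups within 50 kb. Regions of the runs within 10 kb and with unusual tag counts or shifts were named after their values were seen. Members and criteria were chosen with earlier results of these data known. The reference tables were of another build than mm9 and coordinates were not converted, so genes, distance to transcription starts, the EGR motif and sequences are not reported. Coordinates are as listed, and their first base (0 or 1) was not given.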

Additional observations from a re-analysis of the deposited data

How the results depend on the processing

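Of 74 alternative values over the 10 results, 45 kept within the spread set for them and 29 moved. Leaving out the chromosome 1 block, an alternative added after seeing the data, moved none of the 10. The number of tall unshared regions was 1077 at a minimum of 12, 377 at 15, 163 at 20 and 3670 with no minimum, by construction of the list. Their share of tall regions was then 77.3%, 58.6%, 45.9% and 91.5%, and it was 73.1% with a reciprocal overlap of 50% and 76.6% with only NKT regions of 60 bp shift or more. Median ChIP tags were 35 at a minimum of 15 and 46 at 20, median widths 306 and 332 bp, and regions per Mb on chromosome 7 0.251 and 0.115. At 20, the median NKT distance was 257 kb, 42.9% had no control tag, 4.91% had another such region within 50 kb, and the median shift was 89 bp. A control density under 1 gave 42.5% without a control tag. The share with an NKT summit near was 0.602% at 1 kb, 13.7% at 50 kb and 22.9% at 100 kb. With only NKT regions of 60 bp shift or more it was 2.02% at 10 kb, and the median distance was 1262 kb. These values are for the 741 regions then unshared, on a shorter NKT list. Another tall unshared region lay within 10 kb for 2.86% and within 100 kb for 15.04%, and 26.2% had any injected-thymocyte region within 50 kb. The planned checks against transcription starts and the EGR motif were not run, for lack of the matching build. No paired analysis was possible because each condition has 1 library and no test was made. Median counts near 27 tags limit the order of single regions.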

Other observations

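A further 62 tall regions of the injected-thymocyte list had a control density of 3 or more and were left out by the rule. Of these, 51 overlapped no NKT region, 20 of them in the chromosome 1 block. Outside the block the tall regions with a control density of 3 or more held a median of 12 control tags, against 1 in the 665 regions described above. The rule separated these sets by control density, so this difference is a description.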
